A study of Mus musculus with 32 samples.

Results

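H19 and Igf2 are a pair of neighbouring imprinted genes on distal mouse chromosome 7, 2 of the 24421 genes in the UMI tables of this series. Both were read from all 32 libraries, after dropping the cell barcodes that the authors listed as irradiated feeder fibroblasts. The pair was chosen by its measured levels, because both genes were far lower in A2S day 2 cells than in the fibroblasts they came from, so every value that involves A2S day 2 or MEF libraries is given as a description, without a test.

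The study followed the reprogramming of mouse embryonic fibroblasts (MEFs) toward pluripotency with droplet-based single-cell 3′ RNA sequencing, in which each captured transcript end is counted once through a unique molecular identifier (UMI). Cultures were plated on irradiated MEFs in serum-containing embryonic stem cell (ESC) medium with LIF. Each of the 16 groups has 2 libraries, called A and B. The labels do not say whether A and B were separate cultures, so tests measure the spread between these libraries, which may be technical.

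The full cocktail, A2S, was sampled at days 2, 4 and 6. It joins doxycycline (2 ug/mL) to ascorbic acid (50 ug/mL), the DOT1L inhibitor SGC0946 (5 uM) and 2i, a GSK3 inhibitor and a MEK inhibitor that were added 12 h later. A2 (no SGC0946), S2 (no ascorbic acid) and AS (no 2i) were sampled at days 4 and 6. Reprogramming cultures in the serum-containing medium without small molecules (FBS) were sampled at days 3, 6, 9 and 12. ESCs treated with A2S for 2 days (ESC A2S), untreated ESCs and untreated MEFs completed the set. The protocol gives doxycycline for reprogramming cultures as a whole, while the FBS samples carry no treatment in their own labels. The alleles it switches on are not named there, so they are not described here. All cells are of embryonic age, and the ESCs are the V6.5 line.

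H19 is a long non-coding RNA transcribed from the maternal chromosome, and its first exon holds the hairpin of miR-675. Igf2 encodes insulin-like growth factor 2, a fetal growth factor transcribed mainly from the paternal chromosome. A control region between the genes is methylated on the paternal copy and bound by the insulator protein CTCF on the maternal copy, which decides which gene reaches a set of shared enhancers. Both genes are strongly transcribed in fetal mesoderm and are silenced in most tissues after birth.

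In the GENCODE annotation of mm10 both genes lie on the minus strand of chromosome 7. H19 (ENSMUSG00000000031.16, a lincRNA) spans chr7:142575529-142578143, and Igf2 (ENSMUSG00000048583.16, protein coding) spans chr7:142650766-142666816, 72.6 kb away. The miR-675 hairpin lies in exon 1 of the 5-exon transcript H19-202. The mature miRNAs of both loci are shown because they are the parts of these transcripts with a known sequence-specific function and because the counts do not show them: the separate Mir675 column held 0 UMIs in 7650 cells. Seeds (bases 2 to 8) are in capitals, and the sequences are from RefSeq on GRCm38.p6, the same assembly as mm10. No 2 of the 4 share a seed.
mmu-miR-675-5p (chr7:142577112-142577133, minus strand): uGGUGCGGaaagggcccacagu
mmu-miR-675-3p (chr7:142577078-142577099, minus strand): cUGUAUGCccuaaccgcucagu
mmu-miR-483-5p (in Igf2, chr7:142654968-142654989, minus strand): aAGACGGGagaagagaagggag
mmu-miR-483-3p (in Igf2, chr7:142654932-142654952, minus strand): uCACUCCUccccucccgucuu

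RefSeq lists 4 transcription starts of Igf2, all of which feed the same counted 3′ end, so the UMIs do not tell them apart. The 250 bases before the farthest upstream start and before the nearest one to the 3′ end are shown as the ends of that range, with GGGCGG or its reverse complement in capitals.
Igf2 start 1 (chr7:142666817-142667066, minus strand): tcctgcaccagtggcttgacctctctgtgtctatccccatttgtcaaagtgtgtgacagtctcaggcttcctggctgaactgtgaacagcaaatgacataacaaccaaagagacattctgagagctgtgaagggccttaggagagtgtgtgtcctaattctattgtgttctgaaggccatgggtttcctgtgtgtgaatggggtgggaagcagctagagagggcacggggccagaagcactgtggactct
Igf2 start 4 (chr7:142657497-142657746, minus strand): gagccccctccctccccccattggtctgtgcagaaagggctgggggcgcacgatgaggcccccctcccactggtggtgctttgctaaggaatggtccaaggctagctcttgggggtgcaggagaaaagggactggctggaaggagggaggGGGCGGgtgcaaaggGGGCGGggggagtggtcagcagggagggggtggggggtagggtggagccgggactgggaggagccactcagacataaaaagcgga
GGGCGG, read on both strands, had 0 matches before start 1 and 2 before start 4, and 32.7% of the 32851 promoter windows of this length in the RefSeq table held it. TATAAA had 0 matches before any of the 4 starts, against 12.4% of all windows. The window before start 1 was 50.8% G and C and that before start 4 was 66.0%. A match is a run of letters, not a shown binding site.

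Kept libraries held 138 to 431 cells and 1727490 to 8848775 UMIs, with a median of 5240 to 23194.5 UMIs per cell. The markers fitted the labels: the 7 fibroblast markers summed to 9660 and 8931 CPM (UMIs of a gene scaled to a common library size) in the MEF libraries with none at 0, and the 5 pluripotent markers to 2896 and 3005 CPM in the ESC libraries with none at 0. Of all barcodes, 34 were found in more than one library, 1 of them in both libraries of a group. No doublet caller was run and all kept cells were used.

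The pair ranged over more than 3 orders of magnitude between groups. Levels below are CPM of UMIs summed over the kept cells of a library, scaled with TMM factors, and a sum cannot tell fewer expressing cells from less RNA per cell. H19 was highest in FBS day 9, with 2338 CPM in library A and 3290 CPM in library B, and 0 and 0.276 CPM in the ESC A2S libraries were its lowest. Igf2 was highest in MEFs (3122 and 2874 CPM) and lowest in A2S day 4 (2.45 and 2.62 CPM).

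In the order of H19 levels, FBS day 9 (mean 2814 ± 673 CPM, SD, n = 2) came first, before FBS day 12 (1672 ± 155), FBS day 6 (1518 ± 235), MEF (1149 ± 46.6) and FBS day 3 (601 ± 137). AS day 6 (391 ± 444), A2 day 6 (214 ± 26.5), A2S day 6 (192 ± 113), A2 day 4 (93.2 ± 39.6) and AS day 4 (59.7 ± 43.7) followed, and below them S2 day 4 (30.6 ± 10.4), S2 day 6 (27.6 ± 21.3), A2S day 2 (13.2 ± 3.41), ESC (11.8 ± 4.68), A2S day 4 (1.87 ± 0.326) and ESC A2S (0.138 ± 0.195). The libraries of neighbouring groups overlapped at every step but 5: FBS day 9 above FBS day 12, FBS day 6 above MEF, MEF above FBS day 3, ESC above A2S day 4, and A2S day 4 above ESC A2S.

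For Igf2 the order was MEF (2998 ± 175 CPM), FBS day 9 (1436 ± 235), FBS day 12 (1048 ± 372), FBS day 6 (593 ± 59.96) and FBS day 3 (459 ± 9.84). A wide gap followed before AS day 6 (107 ± 96.3), A2S day 2 (87.6 ± 0.0667), A2S day 6 (63.4 ± 61.8) and ESC (32.3 ± 33.2). A2 day 6 (17.5 ± 2.12), AS day 4 (15.5 ± 5.48), A2 day 4 (14.5 ± 5.41), ESC A2S (5.50 ± 0.814), S2 day 6 (3.85 ± 2.67), S2 day 4 (3.15 ± 0.955) and A2S day 4 (2.54 ± 0.119) had the least. Neighbours did not overlap at MEF above FBS day 9, FBS day 12 above FBS day 6, FBS day 6 above FBS day 3, FBS day 3 above AS day 6, and A2 day 4 above ESC A2S.

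**Figure D1:**
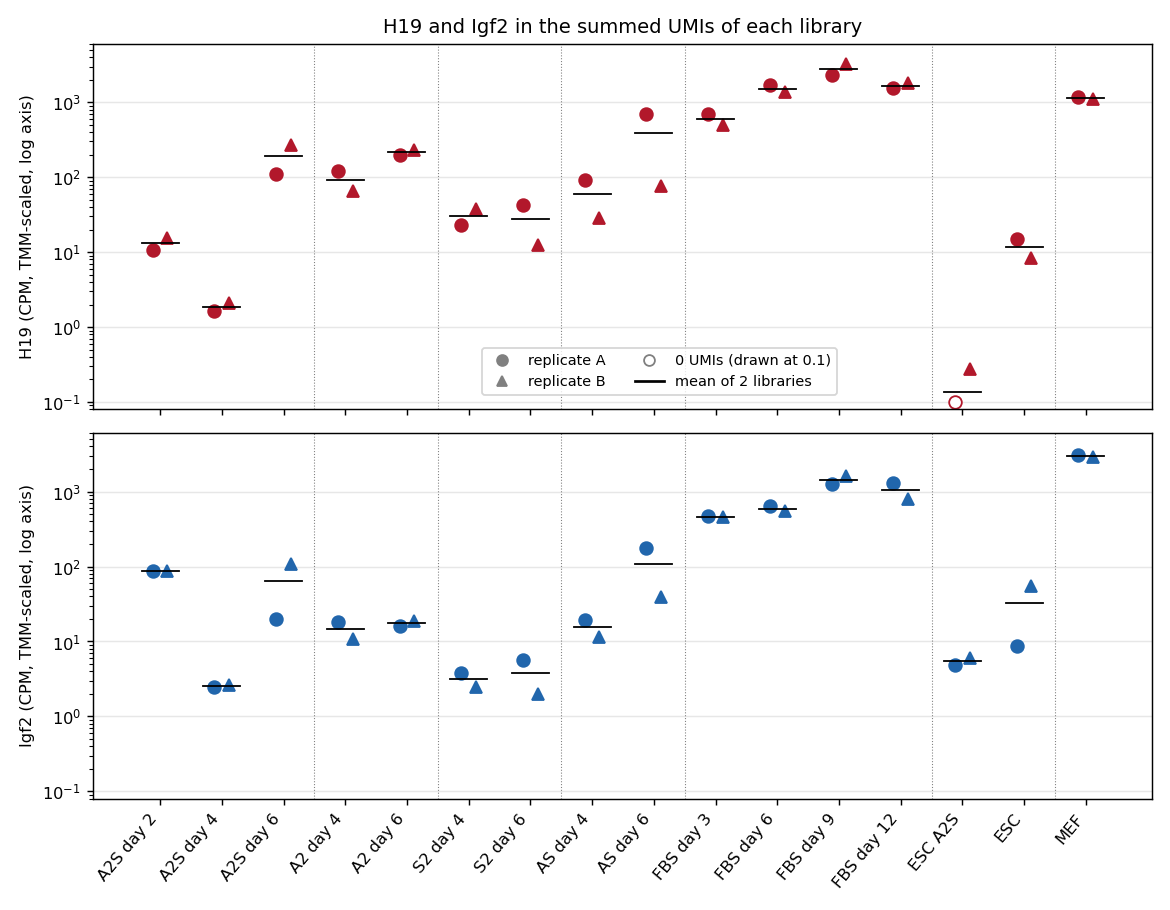
H19 (upper panel) and Igf2 (lower panel) in each of the 32 libraries, in TMM-scaled CPM on log axes, by group; circles are replicate A, triangles replicate B and black lines the mean of 2 libraries. The FBS and MEF libraries lie at 452 CPM or more for both genes, while A2S day 4 lies below 3 CPM for both.

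The fall that brought the pair to notice is described first. H19 had 10.8 and 15.6 CPM in A2S day 2 libraries, against 1182 and 1116 CPM in MEF libraries, so the A2S day 2 mean was 1.15% of the MEF mean. Igf2 had 87.6 and 87.7 CPM in A2S day 2 libraries, against 3122 and 2874 CPM in MEF libraries, or 2.92% of the MEF mean. By A2S day 4 only 10 H19 UMIs and 14 Igf2 UMIs were left in 404 cells, and the means were 0.162% and 0.0846% of those in MEFs. In serum without small molecules the fall was shallower: FBS day 3 held 52.3% of the MEF mean of H19 and 15.3% of that of Igf2. Fibroblast markers moved alongside, with a sum of 2588 and 2739 CPM in A2S day 2, 4491 and 4466 CPM in FBS day 3 and 9660 and 8931 CPM in MEF libraries, and their part in these differences was not tested.

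From here, differences were tested with edgeR's quasi-likelihood test in one fit of all 32 libraries and 13229 genes. A call is a Benjamini-Hochberg adjusted p under 0.05, log2 fold changes are given ± SE with n = 2 libraries a group, and the percentage of all genes called is given for each comparison.

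Both genes were higher again at A2S day 6. H19 had 112 and 272 CPM (363 and 845 UMIs) at A2S day 6, against 1.63 and 2.10 CPM (6 and 4 UMIs) at A2S day 4, with no overlap. Its log2 fold change was 6.71 ± 1.01, a 104-fold difference from 10 UMIs at A2S day 4 (edgeR adjusted p = 9.8e-06, 24.6% of genes called). The ratio of summed UMIs was 106, with a counting interval of 57.4 to 221. That interval takes UMIs as independent, although few cells held most of them, so it is too narrow. Igf2 had 19.7 and 107 CPM at A2S day 6, against 2.45 and 2.62 CPM at A2S day 4, again without overlap (4.63 ± 0.91, edgeR adjusted p = 3.3e-04). Without library B of A2S day 6 the Igf2 change was 2.98 and no longer called (adjusted p = 0.062), while H19 was called without any one library. With the listed barcodes kept, the changes were 5.12 for H19 (adjusted p = 5.7e-05) and 2.54 for Igf2 (adjusted p = 0.014). The single listed barcode of A2S day 4 A held 21 H19 and 48 Igf2 UMIs, against 6 and 9 in the 239 kept cells.

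Those UMIs sat in very few cells. Of 488 A2S day 6 cells, 28 had any H19 UMI, and the 11 with 10 or more H19 UMIs held 97.3% of all of them; 2 cells held at least 50%. The richest cell, in library B, had 561 of that library's 845 H19 UMIs and 187 of its 333 Igf2 UMIs, with 17582 UMIs in all, 1.62 times the median of its library. In library A the richest cell had 139 of 363 H19 UMIs and no Igf2 UMI. Leaving out the cell with the most H19 UMIs of every library, an alternative chosen after seeing the data, kept both calls for A2S day 6 against A2S day 4.

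The 11 cells were of more than one kind. An Epcam UMI (an epithelial adhesion molecule) was found in 8 of them, and 351 of the other 477 cells (73.6%) had one too. The richest cell had 6 Epcam and 24 Cdh1 UMIs (E-cadherin) and 1 UMI of the collagens Col1a1, Col1a2 and Col3a1. The cell of 139 H19 UMIs had 46 collagen UMIs and none of Epcam, Cdh1 or Nanog, and one of 64 H19 UMIs had 28 collagen UMIs and none of these 3. Nanog UMIs (a pluripotency factor) were found in cells with 154, 25 and 19 H19 UMIs. One of the 11 had 865 UMIs in all, of which 31 were H19.

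**Figure D2:**
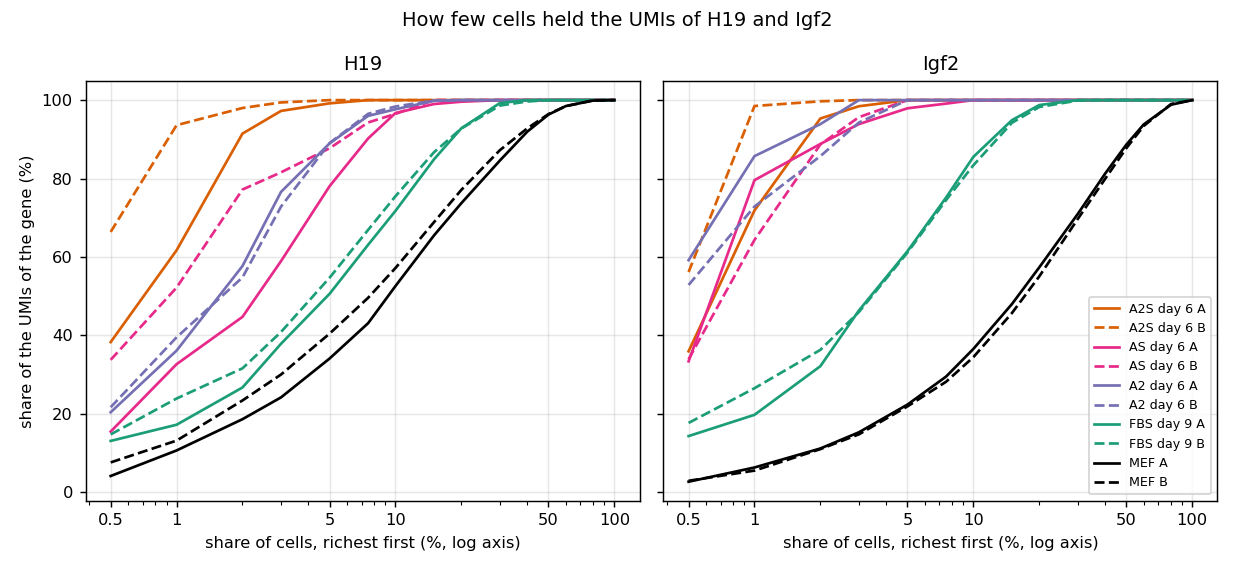
Share of all UMIs of H19 (left) and Igf2 (right) held by the richest cells of a library, against the share of cells on a log axis, for A2S, AS and A2 day 6, FBS day 9 and MEF; solid lines are replicate A and dashed lines replicate B. In A2S day 6 the curves reach nearly all UMIs within a few percent of the cells, while MEF curves climb slowly.

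Other media differed from A2S on the way. At day 4, H19 had 121 and 65.2 CPM in A2, against 1.63 and 2.10 CPM in A2S (log2 fold change 5.72 ± 1.10, edgeR adjusted p = 3.8e-04, 14.4% of genes called). AS day 4 had 90.6 and 28.8 CPM, also above A2S day 4 (4.86 ± 1.22, adjusted p = 0.0026, 30% of genes called), but without library A of A2S day 4 this call was lost (4.64, adjusted p = 0.0646). With the listed barcodes kept, the changes were 4.12 for A2 (adjusted p = 0.0019) and 3.21 for AS (adjusted p = 0.012). S2 day 4 had 23.3 and 38 CPM, above both A2S day 4 libraries, and its change of 4.05 ± 1.36 missed the threshold (adjusted p = 0.071, 6.55% of genes called). No medium was called against A2S at day 4 for Igf2, which had 18.4 and 10.7 CPM in A2 (2.60 ± 1.17, adjusted p = 0.14), 19.3 and 11.6 CPM in AS (2.49 ± 1.20, adjusted p = 0.12) and 3.83 and 2.48 CPM in S2 (0.35 ± 1.72, adjusted p = 0.97), against 2.45 and 2.62 CPM in A2S.

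At day 6, S2 held least of both genes: H19 had 42.7 and 12.6 CPM in S2 day 6, against 112 and 272 CPM in A2S day 6 (log2 fold change -2.74 ± 0.62, edgeR adjusted p = 0.0023, 16.1% of genes called), and Igf2 had 5.74 and 1.96 CPM, against 19.7 and 107 CPM (-3.95 ± 0.82, adjusted p = 9.4e-04). Both calls were lost without library B of A2S day 6, at -1.97 for H19 (adjusted p = 0.0807) and -2.29 for Igf2 (adjusted p = 0.146), and that for H19 also without library B of S2 day 6 (adjusted p = 0.0526). A2 day 6 had 196 and 233 CPM of H19, within the range of A2S day 6 (0.17 ± 0.50, adjusted p = 0.84, 30.8% of genes called). Its Igf2 was lower, at 16 and 19 CPM in A2 day 6 against 19.7 and 107 CPM in A2S day 6 (-1.83 ± 0.59, adjusted p = 0.018), which rested on library B of A2S day 6 (-0.17 and adjusted p = 0.918 without it) and was also lost without either A2 day 6 library.

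AS day 6 was split between its libraries. H19 had 705 CPM in library A and 77.1 CPM in library B, and Igf2 had 175 and 38.9 CPM. These ranges overlapped those of A2S day 6, with changes of 1.05 ± 0.49 for H19 (edgeR adjusted p = 0.090, 38.6% of genes called) and 0.80 ± 0.47 for Igf2 (adjusted p = 0.18). Without AS day 6 A the H19 change turned to -1.34 (adjusted p = 0.027), and without AS day 6 B it was 1.85 (adjusted p = 2.3e-04), where Igf2 was 1.45 (adjusted p = 0.012). Without A2S day 6 B, H19 was 1.80 (adjusted p = 0.033) and Igf2 2.45 (adjusted p = 0.0026). Fibroblast markers summed to 3432 and 3398 CPM in AS day 6 A and B, and pluripotent markers to 89.2 and 144 CPM. Cells with 10 or more H19 UMIs numbered 27 of 255 in library A and 4 of 207 in library B. The part of cell types in the split was not tested.

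Within AS, day 6 libraries overlapped day 4 libraries for H19 (705 and 77.1 CPM at AS day 6, against 90.6 and 28.8 CPM at AS day 4), and the fit called it higher (2.89 ± 0.57, edgeR adjusted p = 3.6e-04, 22.1% of genes called). Igf2 was higher without overlap, at 175 and 38.9 CPM against 19.3 and 11.6 CPM (2.94 ± 0.59, adjusted p = 5.0e-04). Neither call held without AS day 6 A: H19 was then 0.52 (adjusted p = 0.547) and Igf2 1.43 (adjusted p = 0.164). In A2, day 6 against day 4 gave 1.16 ± 0.52 for H19 (adjusted p = 0.15, 14.2% of genes called) and 0.19 ± 0.73 for Igf2 (adjusted p = 0.92), and in S2 -0.07 ± 0.77 and 0.33 ± 1.53 (adjusted p = 0.99 and 0.94, 13% of genes called).

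Whether the change between days 4 and 6 differed between media was tested as an interaction, a test added after the levels were seen. For H19 the interaction, the change in A2 minus that in A2S, was -5.55 ± 1.29 on the log2 scale (edgeR adjusted p = 0.0063, 7.91% of genes called) and that of S2 was -6.78 ± 1.42 (adjusted p = 0.0068, 3.39% of genes called). For Igf2 it was -4.44 ± 1.28 for A2 (adjusted p = 0.028) and not called for S2 (-4.30, adjusted p = 0.29). For AS it was -3.82 for H19 (adjusted p = 0.088) and -1.69 for Igf2 (adjusted p = 0.48), neither of them called (10.9% of genes called). Without library A of A2S day 4 the H19 interaction was not called for A2 (-5.34, adjusted p = 0.082) or S2 (-6.57, adjusted p = 0.057), and the Igf2 interaction for A2 was lost without any one of 6 of its 8 libraries: both of A2S day 4, both of A2 day 6, A2S day 6 B and A2 day 4 A (adjusted p of 0.053 to 0.25). Without AS day 4 B or AS day 6 A the H19 interaction for AS was called (-4.60 and -6.21).

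Serum cultures without small molecules held 452 CPM or more of each gene in every library. Their Igf2 means still lay below that of MEFs, at 15.3% of it in FBS day 3 and at most 47.9%, in FBS day 9. H19 had 1684 and 1351 CPM at FBS day 6, against 698 and 504 CPM at FBS day 3 (log2 fold change 1.34 ± 0.46, edgeR adjusted p = 0.023, 37.8% of genes called). It was not called between FBS day 9 (2338 and 3290 CPM) and FBS day 6 (0.89 ± 0.46, adjusted p = 0.24, 9.37% of genes called), nor between FBS day 12 (1563 and 1782 CPM) and FBS day 9 (-0.75 ± 0.46, adjusted p = 0.32, 12.5% of genes called), although in each pair the libraries did not overlap. Igf2 had 1270 and 1602 CPM at FBS day 9, against 636 and 551 CPM at FBS day 6 (1.27 ± 0.39, adjusted p = 0.033). At FBS day 6 it was not called against FBS day 3 (466 and 452 CPM, 0.37 ± 0.39, adjusted p = 0.48), and at FBS day 12 (1311 and 785 CPM) not against FBS day 9 (-0.46 ± 0.38, adjusted p = 0.49).

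Over the whole course FBS day 12 exceeded FBS day 3 for both genes, by 1.48 ± 0.47 for H19 (edgeR adjusted p = 0.010) and 1.19 ± 0.39 for Igf2 (adjusted p = 0.013, 45.7% of genes called). These calls in serum were close to the threshold. The Igf2 call at FBS day 9 was lost without any one of the 4 libraries, and the H19 call at FBS day 6 without FBS day 3 B (adjusted p = 0.164) or FBS day 6 A (adjusted p = 0.12). For FBS day 12 against FBS day 3, H19 was lost without FBS day 3 B (adjusted p = 0.101) or FBS day 12 B (adjusted p = 0.0535), and Igf2 without FBS day 3 A (adjusted p = 0.0594), FBS day 3 B (adjusted p = 0.0703) or FBS day 12 A (0.75 and adjusted p = 0.207). DESeq2 made none of these 4 calls.

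At the matched day 6, the full cocktail held far less of the pair than serum. H19 had 112 and 272 CPM in A2S day 6, against 1684 and 1351 CPM in FBS day 6 (-2.99 ± 0.50, edgeR adjusted p = 9.2e-06, 52.7% of genes called). Igf2 had 19.7 and 107 CPM, against 636 and 551 CPM (-3.24 ± 0.45, adjusted p = 4.5e-07). Neither gene overlapped between these groups, and both were called without any one library. Fibroblast markers summed to 1198 and 940 CPM in A2S day 6, against 5507 and 5261 CPM in FBS day 6, and epithelial markers to 820 and 738 CPM, against 16 and 14.4 CPM; their part in the difference was not tested.

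**Figure D3:**
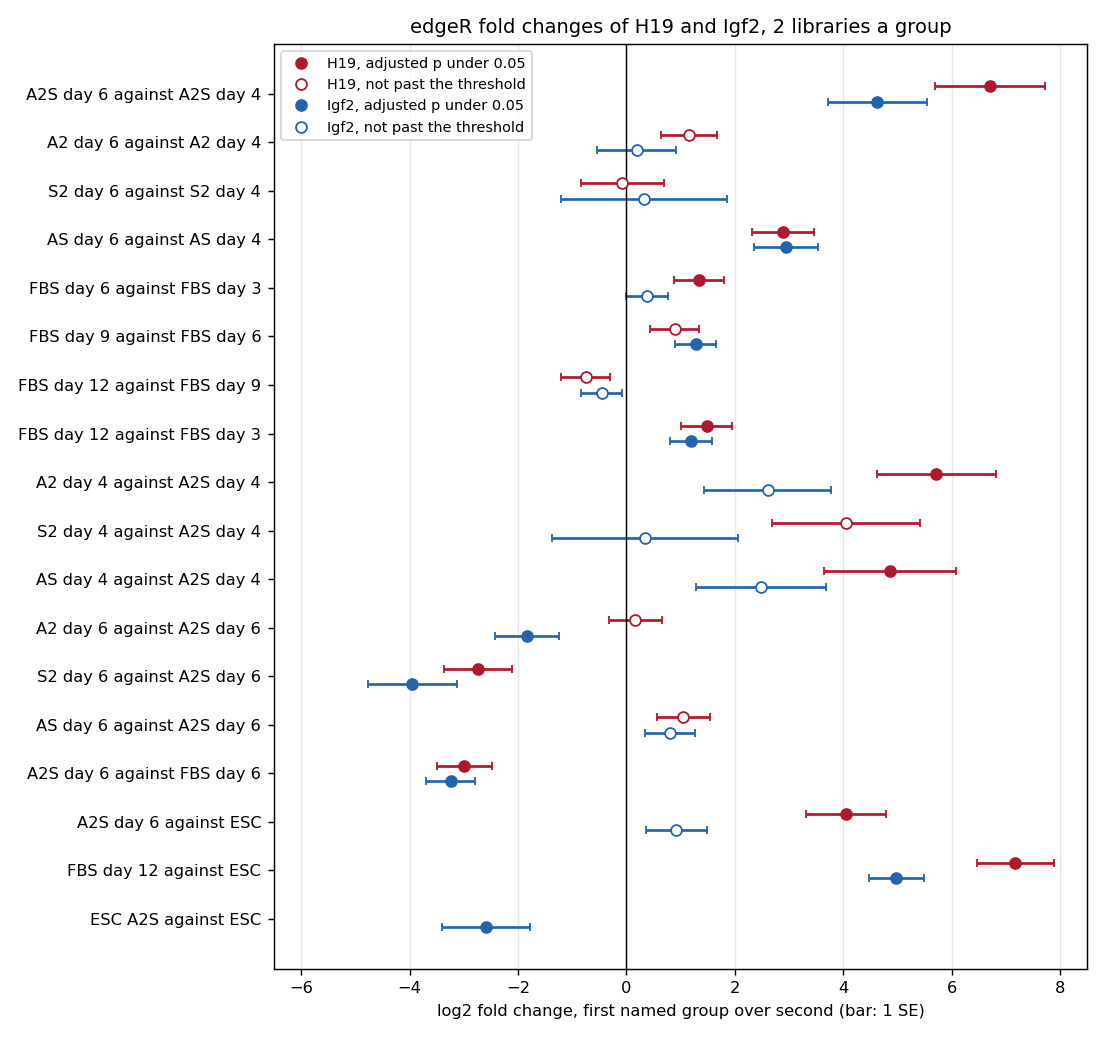
log2 fold changes (points) ± 1 SE (bars) of H19 and Igf2 in the 18 comparisons, first named group over second; filled points had an edgeR adjusted p under 0.05. H19 of ESC A2S against ESC is not drawn because it rests on 1 UMI; H19 of A2S day 6 against A2S day 4 stands at 6.71 and FBS day 12 against ESC at 7.17.

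Set against ESCs, both reprogramming routes held more H19. A2S day 6 had 112 and 272 CPM, against 15.1 and 8.44 CPM in ESCs (4.04 ± 0.74, edgeR adjusted p = 2.8e-05, 54.5% of genes called). Igf2 was not called there (0.92 ± 0.56, adjusted p = 0.17), with 8.79 and 55.8 CPM in the ESC libraries; 91 of the 152 Igf2 UMIs of ESC B came from 1 cell. FBS day 12 exceeded ESCs by 7.17 ± 0.71 for H19 (adjusted p = 2.3e-10, 66.3% of genes called) and by 4.97 ± 0.51 for Igf2 (adjusted p = 4.2e-10).

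In ESC A2S, H19 had 0 UMIs in 374 cells of library A, which allows a share of cells with a UMI of up to 0.802% and sets no limit on cells with lower expression, and 1 UMI in 295 cells of library B. The ESC libraries had 36 and 23 UMIs in 138 and 164 cells. The ratio of summed UMIs, relative to library size, was 0.0119 in ESC A2S over ESC (95% counting interval 2.97e-04 to 0.069), and the call (edgeR adjusted p = 0.049, 46.7% of genes called) was lost without any one library. Igf2 had 4.93 and 6.08 CPM in ESC A2S, against 8.79 and 55.8 CPM in ESCs (-2.59 ± 0.82, adjusted p = 0.0096). Without library B of the ESCs it was -0.67 (adjusted p = 0.72), and without library A of ESC A2S it was -2.44 (adjusted p = 0.0536). With the listed feeder barcodes kept, which make up 62 and 36 barcodes of the ESC A2S libraries, the Igf2 change was 0.14 (adjusted p = 0.88).

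Single cells show how the sums arose. Cells were thinned to 1000 UMIs each for shares, since depth differs, and 46 cells with fewer were left out; unthinned shares are given beside them. H19 was found in 39.6% and 36.4% of MEF cells (82.6% and 81.2% unthinned) and Igf2 in 72.1% and 68.9% (96.6% and 94.7% unthinned). In FBS day 9, H19 was found in 28.8% and 34.5% of cells (38.8% and 47.2% unthinned) and Igf2 in 19.2% and 24.7% (26.8% and 31.0% unthinned). In A2S day 6 these shares were 2.61% and 1.97% for H19 (6.52% and 5.04% unthinned) and 1.74% and 1.57% for Igf2 (3.48% and 2.33% unthinned). For comparison, 0 of 374 and 1 of 295 ESC A2S cells had an H19 UMI unthinned, at median depths of 10112 and 12251 UMIs, where the listed feeder barcodes held 40 and 10 H19 UMIs. Igf2 UMIs were found in 15 and 19 of these ESC A2S cells (4.01% and 6.44%), above the unthinned Igf2 shares of A2S day 6. Whether single Igf2 UMIs in either group are stray RNA or low expression was not tested, so they are not taken to mark expressing cells. The 4 A2S day 6 cells with 10 or more Igf2 UMIs held 93.5% of the Igf2 UMIs of that group. Libraries rich in H19 may hold more stray H19, which was not tested.

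FBS day 9 held more H19 than MEFs, and whether in fewer cells depended on the depth of thinning. At 500 UMIs per cell H19 was found in 25.8% and 30.5% of FBS day 9 cells, against 24.2% and 25.8% of MEF cells, the opposite order to that at 1000 UMIs. The 177 of 696 FBS day 9 cells with 10 or more H19 UMIs (25.4%) had a median of 9670 CPM of H19, and the 309 of 729 MEF cells (42.4%) with as many had a median of 1291 CPM. For Igf2 such cells were 113 in FBS day 9 (16.2%), with a median of 7117 CPM, and 563 in MEFs (77.2%), with a median of 2417 CPM. The shortest list of cells holding at least 50% of H19 UMIs had 31 cells in FBS day 9, 8 in A2 day 6, 7 in AS day 6, 2 in A2S day 6 and 60 in MEFs. The 10-UMI limit takes more RNA in a shallow cell, and median depth was 5240 and 5831 UMIs in FBS day 9, against 22796 and 19102 UMIs in MEFs.

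In serum cultures H19 and Igf2 were found together more often than their separate shares would give. In all 8 FBS libraries the thinned share of cells with both, 6.60% to 20.0%, exceeded the product of the shares of each, 2.16% to 8.51%. The lower 95% bound of the share was above the product in 8 of 8. This bound covers counting error over the cells of a library only and takes the product as fixed. It is given as a description, and co-detection was not tested. In FBS day 9, Igf2 was found in 56.7% and 57.9% of cells with H19, against 4.04% and 7.11% of cells without. In MEFs 34.9% and 28.1% of cells had both, against products of 28.6% and 25.1%, and the lower bound passed the product in 1 of 2 libraries. There Igf2 was found in 77.1% to 88.1% of cells with H19, against 61.7% to 64.2% of cells without. In the 18 A2S, A2, S2 and AS libraries the thinned share exceeded the product in 9, and no cell had both in the other 9. The lower bound passed the product in 6 of the 18. The products there were at most 0.474%, so an excess says little more than that some cell had both. In the 4 ESC and ESC A2S libraries no cell had both, and with products of at most 0.0149% this cannot speak to co-detection. Unthinned, both AS day 4 libraries lay below the product, at 0% and 0.424% against 0.538% and 0.485%. The per-cell rank correlation of the genes, over unthinned counts of 185 to 431 cells that share depth, was 0.308 to 0.635 in FBS libraries and 0.544 and 0.437 in MEF libraries.

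**Figure D4:**
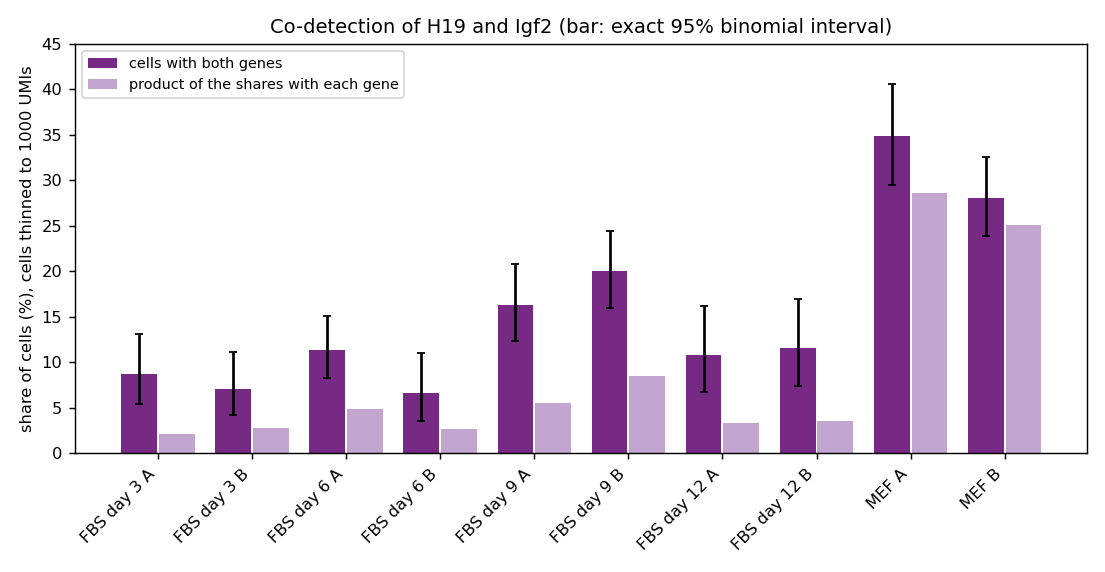
Share of cells with UMIs of both H19 and Igf2 (dark bars, with exact 95% binomial intervals for counting error only) and the product of the shares of each gene (light bars), in cells thinned to 1000 UMIs, by library of FBS and MEF. Dark bars stand above light bars in all 8 FBS libraries, most in FBS day 9.

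The pair held more H19 per Igf2 UMI in most reprogramming groups than in MEFs. Summed over a group, there were 3.04 H19 UMIs per Igf2 UMI in A2S day 6, 12.2 in A2 day 6, 7.22 in S2 day 6, 3.73 in AS day 6 and 1.32 to 2.58 in the FBS groups, against 0.384 in MEFs, 0.153 in A2S day 2 and 0.341 in ESCs. Single libraries moved several of these ratios: they were 5.67 and 2.54 in A2S day 6 A and B, 4.03 and 1.98 in AS day 6 A and B, and 1.71 and 0.151 in ESC A and B, so ESC A lay above the MEF libraries and ESC B below them. Ratios from few UMIs are loose, as in S2 day 6 with 166 and 23 UMIs.

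Single cells were compared where they had 10 or more UMIs of the pair together. In A2 day 6, 27 of 31 such cells had over 90% of the pair's UMIs from H19 and 1 had under 10%. In AS day 6 these were 21 and 0 of 32 cells, in A2S day 6 they were 6 and 0 of 11, and in FBS day 9 they were 60 and 7 of 195. In MEFs 16 of 617 cells had over 90% from H19 and 234 had under 10%, with a median H19 share of 16.7%. Cells with a mixture of both made up 65.6% in FBS day 9 and 59.5% in MEFs. This is a description of a ratio that MEF libraries helped to bring to notice.

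**Figure D5:**
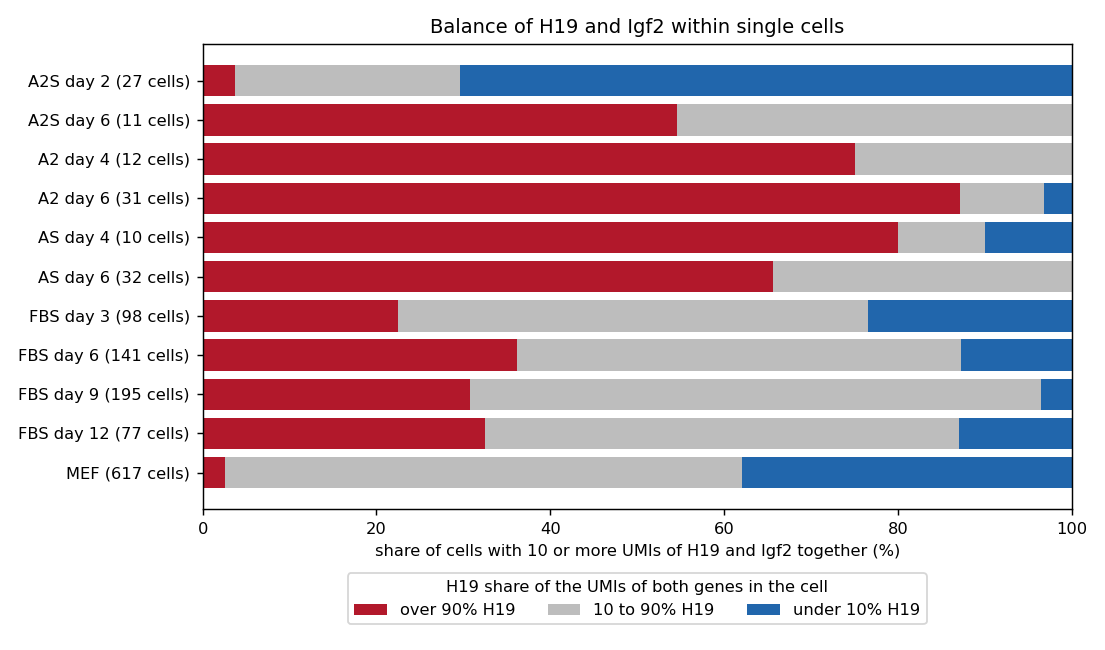
Share of cells by the fraction of H19 among the UMIs of H19 and Igf2, in cells with 10 or more UMIs of the pair, for groups with at least 10 such cells; the number of cells stands beside each group. Cells with mostly H19 (red) make up 87.1% in A2 day 6 and 2.59% in MEF.

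Cells rich in H19 carried epithelial transcripts at different rates in different media, and these rates were not tested against each other. In FBS day 9, 16 of 177 cells with 10 or more H19 UMIs had an Epcam UMI, and so had 14 of 519 other cells (2.70%). In FBS day 6 and FBS day 12 the rate was not higher in H19-rich cells: it was 0 of 108 against 7 of 449 other cells in FBS day 6, and 8 of 61 against 44 of 314 in FBS day 12. In AS day 6 it was 4 of 31 cells, against 116 of 431 other cells (26.9%), and in S2 day 6 it was 1 of 4, against 230 of 441 (52.2%). In A2 day 6 it was 4 of 30, against 45 of 458 (9.83%). Across the 17 libraries with at least 20 cells of each class, H19 was lower in cells with an Epcam or Nanog UMI than in cells with neither in 12, by a mean log2 ratio of -1.04 ± 2.09 (SD), which missed the threshold (two-sided sign-flip permutation test over libraries, p = 0.058). Igf2 was lower in 13 of 17, by -0.85 ± 2.04 (permutation p = 0.10), and adjusting for both tests would only raise these values. The test takes the 17 libraries as independent, although most are A and B libraries of the same group. Several ratios rest on 1 UMI or none in Epcam or Nanog cells, as for H19 in both S2 day 4 libraries (1 UMI each). The 0.5 UMI added to each class sum weighs on such ratios.

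In A2S day 6 the libraries ran opposite ways in that comparison. H19 had 62.7 CPM in Epcam or Nanog cells of A2S day 6 A, against 441 CPM in the cells with neither, and 351 CPM against 63.4 CPM in A2S day 6 B. These values rest on few cells: 3 cells with 561, 154 and 76 UMIs held most of the 805 H19 UMIs of the class in library B, and 2 cells with 139 and 64 UMIs held all 203 H19 UMIs of the 42 cells with neither in library A. In both S2 day 6 libraries the class had less H19, at 13.6 and 3.78 CPM against 92.5 and 24.3 CPM. Fibroblast markers were summed over cells with and without H19 in the 26 libraries that allowed it, and the sum was higher in cells with H19 in 20 of them. Both A2S day 6 libraries went the other way, with 681 and 531 CPM in cells with H19 against 1235 and 961 CPM without. Their epithelial markers summed to 1308 and 1606 CPM in cells with H19, against 784 and 692 CPM without. Both FBS day 9 libraries also had lower fibroblast sums in cells with H19, at 3750 and 3654 CPM against 4134 and 3897 CPM. So had MEF A, at 9485 against 10738 CPM, and ESC A, at 8.61 against 18.5 CPM, while MEF B had 8952 against 8797 CPM. The part of fibroblast-like cells in the H19 levels was not tested.

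Neighbours of the pair on distal chromosome 7 did not follow it as a block. Of 23 other genes listed between Ctsd and Tnfrsf23, 14 were tested. At A2S day 6 against A2S day 4, 2 were higher and 1 was lower (10.8% and 13.8% of all genes), and the median log2 fold change was 0.43, beside -0.01 over all genes tested. The higher ones were Phlda2, an imprinted gene that restrains placental growth, at 18.8 against 0.933 CPM (4.33 ± 0.47, edgeR adjusted p = 1.0e-07), and the mitochondrial ribosomal protein gene Mrpl23 (1.23 ± 0.35, adjusted p = 0.0093). For A2S day 6 against FBS day 6, 2 were higher and 5 lower (26.4% and 26.2% of all genes, median -0.38, beside 0.01 over all genes). Cdkn1c, a maternally expressed inhibitor of the cell cycle, was among the lower, at 14.3 against 159 CPM (-3.50 ± 0.33, adjusted p = 2.4e-10), with the leukocyte gene Lsp1 at 1.57 against 22.2 CPM (-3.79 ± 0.39, adjusted p = 1.4e-09).

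In serum Cdkn1c had 21.7 CPM at FBS day 3, 159 at day 6, 154 at day 9 and 109 at day 12, and FBS day 12 was above FBS day 3 (2.34 ± 0.33, edgeR adjusted p = 7.8e-07). Kcnq1ot1, the paternally expressed antisense RNA of the neighbouring imprinted domain, was called in ESC A2S against ESC, at 95.6 against 26.7 CPM (1.83 ± 0.19, adjusted p = 2.9e-09), where H19, Igf2, Cdkn1c (-3.57 ± 0.39, adjusted p = 5.9e-09) and Phlda2 (-4.10 ± 0.24, adjusted p = 3.7e-14) were lower. The H19 and Igf2 calls there depended on single libraries and on leaving out the listed barcodes, as given above. In that comparison 5 of the 14 were higher and 3 lower (25.2% and 21.5% of all genes). Igf2os, annotated on the plus strand across the upstream Igf2 starts, had 75 UMIs over all libraries, 7 of them in the A2S day 6 cell with the most H19, and Ins2 had 1. Whether counting used strand is not given in the sources used here, so UMIs of overlapping genes may be shared.

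Partners of Igf2 in its signalling axis were counted from a list of 23 genes other than Igf2, of which 19 were tested. In A2S day 6 against FBS day 6, 1 was higher and 15 were lower (26.4% and 26.2% of all genes), with a median of -1.46, beside 0.01 over all genes tested. The fibroblast markers given above moved with this comparison, and their part in it was not tested. Igf1r, the receptor that carries the growth signal, was at 33.0 against 218 CPM (-2.72 ± 0.13, edgeR adjusted p = 8.2e-17), and Igf2r, which clears the growth factor and is itself imprinted, at 108 against 182 CPM (-0.75 ± 0.13, adjusted p = 2.0e-05). The secreted binding protein gene Igfbp3 was at 235 against 1937 CPM (-3.05 ± 0.20, adjusted p = 1.0e-13), while Igfbp2 was the gene called higher, at 193 against 5.63 CPM (5.22 ± 0.65, adjusted p = 5.2e-08).

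Along the A2S course, from day 4 to day 6, 4 genes of the axis were higher and 1 was lower (10.8% and 13.8% of all genes, median 0.24, beside -0.01 over all genes), with Igfbp2 at 193 CPM at A2S day 6 against 11.9 CPM at A2S day 4 (4.08 ± 0.57, adjusted p = 2.9e-06) and Igf2r at 108 against 81.4 CPM (0.40 ± 0.14, adjusted p = 0.040). In serum, FBS day 12 against FBS day 3, 11 were higher and 4 lower (23.5% and 22.2% of all genes, median 0.95, beside 0.02), with Igf1r at 294 against 129 CPM (1.19 ± 0.11, adjusted p = 6.2e-10) and Igfbp3 at 3103 against 481 CPM (2.69 ± 0.20, adjusted p = 2.3e-12).

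Of 14 genes listed as regulators of imprinted marks, 13 were tested. In A2S day 6 against FBS day 6, 7 were higher and 3 lower (26.4% and 26.2% of all genes, median 0.50, beside 0.01 over all genes). Uhrf1, which brings the maintenance methyltransferase to replicated DNA, was at 196 against 61.7 CPM (1.68 ± 0.13, edgeR adjusted p = 5.0e-12), Dnmt1, that methyltransferase, at 156 against 85.2 CPM (0.87 ± 0.13, adjusted p = 1.1e-06), and Ctcf at 98.4 against 61.5 CPM (0.68 ± 0.13, adjusted p = 3.5e-05). Dppa3 had the largest change of the 13, at 63.8 against 0 CPM (10.7 ± 0.72, adjusted p = 6.9e-12). Lower were Zfp57, at 0.161 against 1.58 CPM (-3.02 ± 1.25, adjusted p = 0.044), and Vezf1, at 52.5 against 77.4 CPM (-0.56 ± 0.13, adjusted p = 3.6e-04). Plagl1, an imprinted zinc-finger factor known in mice to raise H19 and Igf2, was lower, at 68.1 against 198 CPM (-1.54 ± 0.16, adjusted p = 1.6e-09). It was also lower at A2S day 6 than at A2S day 4, at 68.1 against 164 CPM (-1.28 ± 0.16, adjusted p = 6.6e-07), where H19 and Igf2 were higher.

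Across the 16 group means of log2 CPM, the genes most like H19 among 6737 with at least 50 CPM in a group were Glt8d1 (Pearson r = 0.938), Itm2c (0.933), Mxra8 (0.925), Fkbp7 (0.924), Emilin1 (0.917), Mgp (0.915), Reck (0.914), Tspyl1 (0.913), Wipf1 (0.910) and Sox4 (0.910). Those most like Igf2 were Serpinf1 (0.924), Apbb2 (0.921), Rcn3 (0.910), Mfap5 (0.905), Pdgfra (0.904), Ltbp2 (0.900), Cxcl12 (0.897), Tmem45a (0.895), Tmem200a (0.892) and Snapin (0.882). The lists share no gene. Igf2 itself ranked 100 among genes like H19, and H19 ranked 60 among genes like Igf2, at r = 0.832. These are descriptions over groups that share fibroblast origin and media. Mgp, for example, had 5802 CPM in FBS day 9, 914 CPM in MEF, 27.4 CPM in A2S day 4 and 8.32 CPM in ESC.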

How the data were processed

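For each of 32 libraries (16 groups of 2) the authors deposited a table of UMI counts, with cells in rows and genes in columns, and one list of feeder barcodes for the series. The submitters' processing notes name bcl2fastq 2.19, STAR and the mm10 build. How UMIs were assigned to genes, with which annotation and with or without strand, is not given in the sources used here. The feeder list removed 684 of 8334 barcodes and left 7650; the MEF libraries themselves held 10 and 13 listed barcodes. The counts hold no mitochondrial gene. No doublet caller was run.

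Counts of kept cells were summed per library and tested in edgeR 4.0.16 (TMM, filterByExpr, quasi-likelihood) in one fit of 16 groups, with Benjamini-Hochberg adjustment over 13229 genes; DESeq2 1.42.0 was an alternative. The pair and the gene lists were chosen with earlier results of these data known, so 18 comparisons without MEF and A2S day 2 were tested and list counts are descriptions. Interactions and the removal of top cells were added after seeing the data. Cells were thinned to 1000 UMIs for shares. Shares have exact (Clopper-Pearson) 95% intervals, and upper limits of a 0 are 3 counts; both cover counting error only. Genes named by likeness are the 10 with the highest Pearson correlation with each member over 16 groups, among genes with at least 50 CPM in a group, without mitochondrial, predicted and Rik genes. Figures used matplotlib 3.10.9. The fit was tested on data simulated for A2S day 6 against A2S day 4. It recovered 34.3% of 67 genes changed 1.5-fold, 62.7% of 67 changed 2-fold and 89.4% of 66 changed 4-fold. Of 130 calls, 6 were false. A change near 2-fold that was not called may thus have been missed. No column of the tables was left unused.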

Additional observations from a re-analysis of the deposited data

Results flagged for a closer look

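The change of H19 between days 4 and 6 differed between media: it was lower in A2 than in A2S by an interaction of -5.55 (log2) and lower in S2 than in A2S by -6.78. For Igf2 the interaction of A2 with A2S was -4.44. These edgeR tests were added after the levels were seen, and their adjusted p-values stand with the comparisons of media above. Barcodes on the feeder list, which the comparisons leave out, held the pair too. Summed over all libraries they had 214 CPM of H19 and 527 CPM of Igf2. These sums mix unlike libraries: H19 in listed barcodes ran from 0 CPM in A2S day 6 A to 2912 CPM in FBS day 12 B. The 10 and 13 listed barcodes of MEF A and B had 4642 and 3391 CPM of Igf2.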

How the results depend on the processing

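All 42 tests of H19 and Igf2 (36 comparisons and 6 interactions) kept their direction and their side of the threshold under RLE factors, with cells of 1000 UMIs or more only, and with the replicate letter as a block. The block gave 6.81 for H19 in A2S day 6 against A2S day 4. Replicate letters did not pair libraries: over 120 pairs of groups the correlation of same-letter deviations ran from -0.0858 to 0.074, with 0 over 0.1.

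Without a count filter, 10 tests passed the threshold that had not: A2 day 6 against A2 day 4 (H19, 1.15), FBS day 9 against FBS day 6 (H19, 0.85), A2 day 4 (Igf2, 2.61), S2 day 4 (H19, 4.04) and AS day 4 (Igf2, 2.51) against A2S day 4, AS day 6 against A2S day 6 (H19 1.07, Igf2 0.82), A2S day 6 against ESC (Igf2, 0.92), and the interactions of S2 (Igf2, -4.30) and AS (H19, -3.81). With the listed barcodes kept, Igf2 turned to 0.14 in ESC A2S against ESC, and calls were lost for H19 there (-1.03) and for Igf2 in FBS day 9 against FBS day 6 (1.34), A2 day 6 (-1.52) and S2 day 6 (-1.36) against A2S day 6 and the A2 interaction (-2.43). H19 stayed called with a smaller change in S2 day 6 against A2S day 6 (-2.12) and in the interactions of A2 (-3.97) and S2 (-4.51). It also stayed called with smaller changes in A2S day 6, A2 day 4 and AS day 4 against A2S day 4, as given above. Without the top H19 cell of each library, calls were lost for Igf2 in A2 day 6 against A2S day 6 (-1.45) and H19 in ESC A2S against ESC (-7.68) and gained for AS day 6 against A2S day 6 (H19 2.03, Igf2 1.16). Without the top Igf2 cell, calls were lost in ESC A2S against ESC (H19 -5.99, Igf2 -1.69) and gained for AS day 6 against A2S day 6 (H19 1.75, Igf2 1.31). Without the top H19 cell, A2S day 6 against FBS day 6 stayed called at -4.07 for H19 and -4.13 for Igf2. Both removals were chosen after seeing the data.

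In fits of the compared groups alone, H19 in AS day 6 against AS day 4 was not called (2.81), and calls were gained for H19 in A2 day 6 against A2 day 4 (1.15), FBS day 9 against FBS day 6 (0.88), FBS day 12 against FBS day 9 (-0.74) and S2 day 4 against A2S day 4 (4.05), and for Igf2 in FBS day 6 against FBS day 3 (0.38) and in A2 day 4 (2.57) and AS day 4 (2.56) against A2S day 4. Igf2 in S2 day 4 against A2S day 4 was removed by the count filter there and has no value. DESeq2 lost H19 in FBS day 6 (1.35) and FBS day 12 (1.51) against FBS day 3, and Igf2 in FBS day 9 against FBS day 6 (1.27), FBS day 12 against FBS day 3 (1.22) and A2 day 6 against A2S day 6 (-1.89). It gained Igf2 in A2 day 4 (2.53) and AS day 4 (2.62) and H19 in S2 day 4 (4.06) against A2S day 4, and the interactions of S2 (Igf2, -4.37) and AS (H19, -4.02). The cause of these changes was not tested.

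With each library left out in turn, 22 of 42 tests kept their call throughout. The others ranged, for H19, from 3.99 to 5.63 in AS day 4 against A2S day 4, -3.94 to -1.97 in S2 day 6 and -1.34 (reversed, without AS day 6 A) to 1.85 in AS day 6 against A2S day 6, 0.52 to 3.77 in AS day 6 against AS day 4, -8.23 to -5.20 in ESC A2S against ESC, 1.11 to 1.59 in FBS day 6 and 1.23 to 1.71 in FBS day 12 against FBS day 3, and from -6.08 to -4.79, -7.98 to -6.01 and -6.21 to -2.97 in the interactions of A2, S2 and AS. For Igf2 they ranged from 2.98 to 5.42 in A2S day 6 against A2S day 4, -0.75 to 2.85 in A2S day 6 against ESC, -2.62 to -0.17 in A2 day 6, -4.99 to -2.29 in S2 day 6 and -0.72 to 2.45 in AS day 6 against A2S day 6, 1.43 to 3.61 in AS day 6 against AS day 4, -3.33 to -0.67 in ESC A2S against ESC, 0.75 to 1.49 in FBS day 12 against FBS day 3, 1.08 to 1.42 in FBS day 9 against FBS day 6 and -5.23 to -2.78 in the A2 interaction. Where 1 library of a group is left, it is assumed to vary like the other groups.

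Between Epcam or Nanog cells and the rest, H19 passed the permutation threshold with an Epcam UMI alone (-1.30) and with listed barcodes kept (-1.25). Igf2 passed only with listed barcodes kept (-1.93), which adds feeder barcodes mostly to the class with neither UMI. Neither gene passed with at least 50 cells a class (-1.41 and -1.38), with 1 UMI added (-0.92 and -0.66), or in replicate A (-1.16 and -1.04) or B (-0.91 and -0.64) alone. In cells thinned to 1000 UMIs, which left 5 libraries, H19 was at -0.53 and Igf2 turned to 0.23 (permutation p = 0.625 and 0.75). Shares of cells moved by more than 1 SD in 17 of 32 group values when thinned to 500 UMIs, in 20 at 2000 UMIs and in 32 unthinned, so shares hold for one depth only. Igf2 ranked 322 among genes like H19 by Spearman's rho, and H19 ranked 36 among genes like Igf2 over 32 libraries.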
